A study of Mus musculus with 12 samples.

Results

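The subunits of the hypoxia-inducible factors and the enzymes that sense oxygen for them were followed in smooth muscle cells cultured from mouse aorta, which contract to set the width of the vessel. The 10 genes were chosen by symbol: the oxygen-regulated subunits Hif1a, Epas1 and Hif3a, the constitutive partners Arnt and Arnt2, the prolyl hydroxylases Egln1, Egln2 and Egln3, the asparaginyl hydroxylase Hif1an and the ubiquitin ligase subunit Vhl. These genes and the lists used further on were chosen with earlier results of these data known. Each was found once among the 25745 genes of the deposited table, and all 10 were among the 10758 genes that were tested, those averaging 1 FPKM or more over the libraries. FPKM is the number of sequenced fragments of a gene per kilobase of its length, scaled to the size of the library, so levels can be set side by side between genes.

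A hypoxia-inducible factor is a pair of proteins, 1 alpha subunit and 1 Arnt subunit, that binds DNA next to its target genes. While oxygen is plentiful, the Egln enzymes hydroxylate prolines of the alpha subunit, the Vhl protein binds the hydroxylated form, and the subunit is ubiquitinated and degraded. The enzyme encoded by Hif1an hydroxylates an asparagine and so keeps coactivators away. Control of the alpha subunits is thus largely at the level of protein, which RNA does not measure. Among the Egln enzymes, Egln3 and, more weakly, Egln1 are themselves known targets of the factors.

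The cells were wild type and came from the aortas of C57BL/6J mice 5 to 6 weeks old, whose adventitia and endothelium had been taken off before the explants were cultured, and per the labels' protocols passages 5 to 8 entered the experiments. The 12 libraries formed 4 groups of 3. These were control cells in basal medium, calcification medium with 3.0 mM sodium phosphate, which drives such cells to deposit mineral, calcification medium with the empty lentivirus LV-Vector, and calcification medium with the αKlotho lentivirus LV-Klotho, all for 7 days. The labels do not say whether the cells of the first 2 groups received a virus. Whether replicates were separate animals or cultures is not said either, and p-values therefore describe spread among these samples only, part of which may be technical. Depth, worked back from the deposited values, lay between 16643000 and 20015000 fragments per library. The αKlotho gene Kl was above 0 in 1 of the 12 libraries, at 0.00536 FPKM in replicate 3 of the LV-Klotho group, so that group is called the libraries labelled Klotho and directions involving it rest on the label. All 6 smooth muscle markers examined were expressed, but their summed level ran from 206 to 1114 FPKM within control and from 155 to 1062 FPKM within calcification medium, with replicate 1 the lowest library of every group. Of the other cell types examined, 1 of 6 endothelial, 3 of 5 macrophage and 4 of 6 adventitial fibroblast markers reached a mean of 1 FPKM, and none of these markers was at 0 in all libraries. In such bulk samples fewer cells of a type and less RNA per cell cannot be told apart.

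In basal medium Egln1 was the most abundant of the 10 transcripts, at 41.3 ± 1.20 FPKM (SD, n = 3), apart from Egln2 at 26.9 ± 1.44 FPKM in every library. Egln2, Epas1 (22.2 ± 5.88 FPKM) and Hif1a (19.8 ± 3.80 FPKM) followed, and neighbours among these overlapped. A middle tier held Arnt (8.83 ± 0.215 FPKM), Vhl (7.99 ± 2.46 FPKM) and Hif1an (6.67 ± 1.39 FPKM), whose libraries also overlapped. Egln3 (4.56 ± 0.974 FPKM) and Arnt2 (3.78 ± 0.246 FPKM) came next, and Hif3a was lowest at 1.21 ± 0.308 FPKM. Over all 12 libraries Egln2 ranked at the 84.6th percentile of the tested genes by mean level and Egln3 at the 18.4th. In calcification medium the order differed at both ends. Egln1 held the third place, with Epas1 (31.8 ± 4.29 FPKM) and Egln2 (31.0 ± 4.01 FPKM) above it, and Egln2 and Egln1 overlapped. At the low end Egln3 (1.21 ± 0.393 FPKM) lay below Hif3a (3.29 ± 0.115 FPKM) in every library. The same pair was also apart in the libraries labelled Klotho and overlapped in those with vector.

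**Figure D1:**
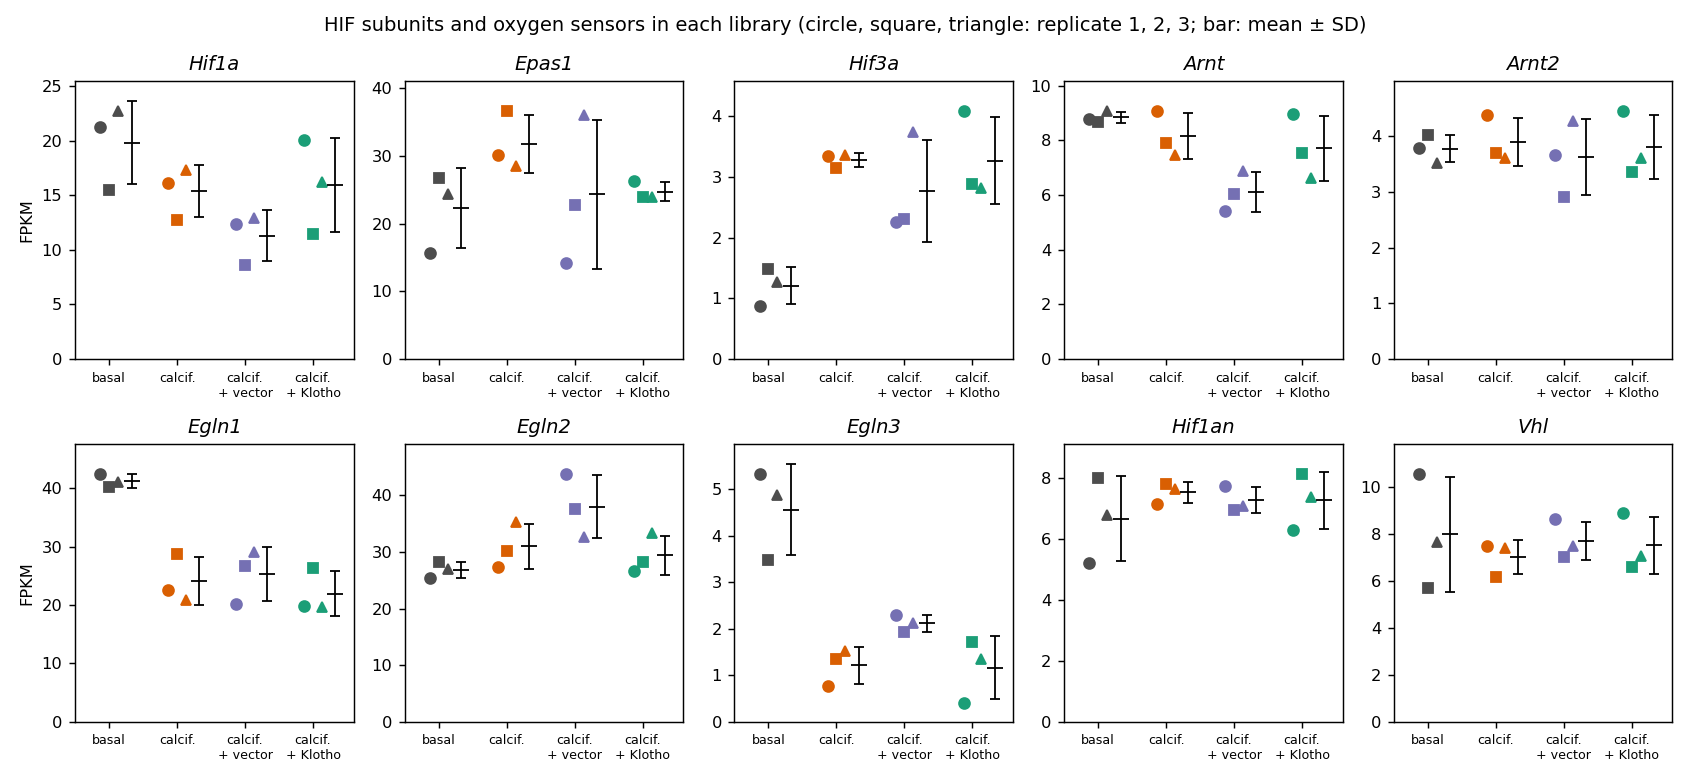
Level in FPKM (vertical axis, linear, from 0) of each of the 10 genes in the 12 libraries, by group; circles, squares and triangles are replicates 1, 2 and 3, and the bar beside them is the mean ± SD of 3. Egln1 lies between 40.2 and 42.6 FPKM in basal medium and between 19.6 and 29.0 FPKM in the other 9 libraries, Egln3 is likewise lower and Hif3a higher in all 9, and Arnt2, Hif1an and Vhl overlap in every comparison drawn.

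The first question was which of the 10 transcripts differed between calcification medium and basal medium. Egln3 fell and Hif3a rose, 2 of 10 members called by limma at an adjusted p under 0.05, where 0.706% of all genes tested were called (0.428% higher, 0.279% lower). With the replicate number as a block, Egln1 also fell, which made 3 of 10 members against 3.91% of all genes (2.74% higher, 1.17% lower). No call was made for Hif1a, Epas1, Arnt, Arnt2, Egln2, Hif1an or Vhl, with or without the block. The upstream sequences of the 3 genes are shown first, because each was called in at least 1 of these 2 fits. The letters in capitals are those that hypoxia-inducible factors are known to recognise. Sequences are the 250 bases before the annotated start in RefSeq, build GRCm38.p6, each printed 5′ to 3′ on the minus strand, which is the strand of the gene. Capitals mark ACGTG or GCGTG, or their reverse complements CACGT and CACGC. The regions are chr12:54203875-54204124 for Egln3, chr8:124949255-124949504 for Egln1 and chr7:17062428-17062677 for Hif3a.
Egln3: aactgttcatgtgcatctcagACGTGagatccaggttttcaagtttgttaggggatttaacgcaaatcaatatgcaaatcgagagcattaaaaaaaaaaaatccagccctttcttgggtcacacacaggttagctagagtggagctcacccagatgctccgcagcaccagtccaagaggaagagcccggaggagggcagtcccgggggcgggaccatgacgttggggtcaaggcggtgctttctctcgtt
Egln1: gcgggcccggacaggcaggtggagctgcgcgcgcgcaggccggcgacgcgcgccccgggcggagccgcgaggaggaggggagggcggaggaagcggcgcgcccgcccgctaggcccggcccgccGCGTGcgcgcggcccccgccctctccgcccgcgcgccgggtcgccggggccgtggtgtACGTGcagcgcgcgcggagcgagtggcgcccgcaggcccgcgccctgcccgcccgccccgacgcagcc
Hif3a: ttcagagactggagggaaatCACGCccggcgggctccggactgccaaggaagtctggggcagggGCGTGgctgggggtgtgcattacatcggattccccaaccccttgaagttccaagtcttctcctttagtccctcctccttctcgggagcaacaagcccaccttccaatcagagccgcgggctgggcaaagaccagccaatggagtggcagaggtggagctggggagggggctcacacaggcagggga
Egln3 held 1 ACGTG, whose first base lies 229 bases before the start. Egln1 held GCGTG 126 bases and ACGTG 68 bases before it. Hif3a held GCGTG on either strand, at 230 and 186 bases. Of 27025 genes with such a sequence, 16.6% held ACGTG on either strand, 28.2% held GCGTG and 38.6% held at least 1 of them. RefSeq sequences were matched for 9 of the 10 members (Epas1 was not matched), and 6 of the 9 held a motif: Hif1a, Hif3a, Arnt, Egln1, Egln2 and Egln3. ACGTG also lies within the palindrome CACGTG, which occurred in the Hif1a sequence and is counted there on both strands. A match describes the letters of this window and is not evidence of binding.

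Egln3 encodes a prolyl hydroxylase that hypoxia-inducible factors induce in many cell types. It stood at 5.34, 3.47 and 4.88 FPKM in replicates 1, 2 and 3 of control. In calcification medium the values were 0.770, 1.35 and 1.52 FPKM. All 3 control libraries lay above all 3 in calcification medium, and the mean was 3.76 times as high in control. As log2(FPKM + 1), a scale on which changes of low genes come out too small, the fold change was -1.33 ± 0.24 (SE, n = 3 per group, limma adjusted p = 0.0293). Egln3 was not called in limma-voom on the recovered fragments, which adds less to low values (log2 -1.95, adjusted p = 0.0537). Nor was it called with 0.1 added in place of 1 (log2 -1.85, limma adjusted p = 0.0900). The values rest on 39, 60 and 70 fragments per library in calcification medium, and on 243, 160 and 223 in control. With the control of the same number subtracted, the differences were -1.84, -0.92 and -1.23 on the log2(FPKM + 1) scale.

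Hif3a encodes an alpha subunit of which several isoforms act as inhibitors of the other alpha subunits; the gene-level values do not tell isoforms apart. It stood at 0.880, 1.49 and 1.27 FPKM in control. In calcification medium it stood at 3.34, 3.15 and 3.36 FPKM, the tightest group of any for this gene. The groups did not overlap, and the mean in calcification medium was 2.71 times that in control. The log2 fold change was 0.96 ± 0.18 (limma adjusted p = 0.0339), and 1.47 in limma-voom on the recovered fragments, which adds less to low values (adjusted p = 0.0294).

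Egln1 encodes the hydroxylase regarded as the main oxygen sensor of the pathway. Its control libraries were close together, at 42.6, 40.2 and 41.1 FPKM. Calcification medium gave 22.6, 28.8 and 20.9 FPKM, all below the lowest control library. The control mean was 1.71 times as high, and the log2 fold change was -0.76 ± 0.17 (limma adjusted p = 0.0783). The same fold change had an SE of 0.14 and an adjusted p of 0.0163 with the replicate block. It was also called after a trend with GC content and transcript length across genes was removed (log2 -0.90, adjusted p = 0.0436). Of 22 alternative fits only 3 called Egln1. Its adjusted p was 0.0699 in limma-voom and 0.0555 to 0.234 in limma with a library left out.

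Both calls were lost when certain single libraries were left out. The adjusted p of Hif3a in limma was 0.117, 0.0574 and 0.0941 without control replicate 1, 2 or 3. It was 0.0708, 0.133 and 0.119 without calcification replicate 1, 2 or 3. Without replicate 2 or 3 of the libraries labelled Klotho, which enter only the estimate of the spread, it was 0.0514 and 0.0509. For Egln3 the limma adjusted p was 0.103 and 0.104 without control replicate 1 or 3, and 0.0698, 0.108 and 0.0721 without calcification replicate 1, 2 or 3. Without vector replicate 3 it was 0.0526. Replicates 2 and 3 of every group taken alone, which leaves out the libraries with the low smooth muscle markers, gave log2 fold changes of -1.07 for Egln3 (adjusted p = 0.0541) and 0.84 for Hif3a (adjusted p = 0.0983), both in the direction seen with all libraries.

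Hif1a was at 21.2, 15.5 and 22.7 FPKM in control and at 16.1, 12.7 and 17.3 FPKM in calcification medium. The groups overlapped, and replicate 2 was lowest in both. The log2 fold change was -0.34 ± 0.22 (limma adjusted p = 0.610). Epas1, the alpha subunit that is prominent in endothelium and other vascular cells, was at 15.6, 26.7 and 24.4 FPKM in control. It stood at 30.1, 36.6 and 28.5 FPKM in calcification medium, without overlap between the groups. The log2 fold change of 0.52 ± 0.28 did not pass (limma adjusted p = 0.532). Among all genes tested, 9.19% lay higher in calcification medium without overlap and 5.52% lay lower. Of the members 2 lay higher in this way, Hif3a and Epas1, and 2 lower, Egln1 and Egln3.

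The other 5 members had fold changes between -0.13 ± 0.19 for Vhl and 0.19 ± 0.14 for Egln2 on the log2(FPKM + 1) scale. Arnt, the usual partner of the alpha subunits, stood at -0.11 ± 0.13, and Arnt2, a partner best known from the nervous system, at 0.03 ± 0.14. Hif1an stood at 0.17 ± 0.14. Limma gave adjusted p values from 0.663 to 0.952 for these 5 genes.

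The second comparison set the 3 groups in calcification medium, each weighted equally, against control, and so asked whether the differences held when the virus groups were included. It shares the control libraries and the calcification libraries with the first and is not independent of it. The same 3 genes were called without any block: Egln1 and Egln3 fell and Hif3a rose, 3 of 10 members where 4.38% of all genes were called (2.59% higher, 1.78% lower). Over all genes 279 were higher and 192 lower, and 199 and 235 after the GC content and length trend was removed. Across the 9 libraries Egln3 ranged from 0.405 to 2.29 FPKM, Egln1 from 19.6 to 29.0 FPKM and Hif3a from 2.25 to 4.09 FPKM. No library of these 9 overlapped the control libraries for any of the 3 genes, whereas 4.16% of all genes lay higher and 2.78% lower without overlap.

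For Egln3 the limma fold change over the 3 groups was -1.19 ± 0.19 (log2, adjusted p = 0.0084), and the control mean was 3.05 times the mean of 1.5 ± 0.614 FPKM over the 9 libraries (SD, n = 9). Its fall was also called in 20 of 21 alternative fits; without control replicate 3 the adjusted p was 0.0547. For Egln1 the fold change was -0.78 ± 0.14 (adjusted p = 0.0112), with 23.8 ± 3.91 FPKM in the 9 libraries. It was called in 19 of 21 alternatives, and had an adjusted p of 0.0517 without control replicate 2 and 0.0629 without control replicate 3. For Hif3a the fold change was 0.89 ± 0.14 (adjusted p = 0.0084), with 3.11 ± 0.611 FPKM in the 9 libraries, and it was called in all 21 alternatives, at adjusted p values from 0.0014 to 0.0432. Replicates 2 and 3 alone gave -0.95, -0.68 and 0.76 for Egln3, Egln1 and Hif3a, all 3 called.

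Hif1a stood at 14.2 ± 3.49 FPKM in the 9 libraries and was not called without the block (log2 -0.47 ± 0.18, limma adjusted p = 0.129). With the replicate block it fell, with the same fold change, an SE of 0.09 and an adjusted p of 0.00752, so that 4 of 10 members were called where 16% of all genes were (9.45% higher, 6.58% lower). Each of the 9 libraries was below the control of the same number for Hif1a, by 0.08 to 0.78 on the log2(FPKM + 1) scale. These differences reuse the same 3 control libraries, and the share of all genes with 1 direction throughout was not counted. Without regard to number the 9 libraries overlapped control for Hif1a. In the vector group these differences were -0.73, -0.78 and -0.77, and in calcification medium -0.38, -0.27 and -0.37. Those of the libraries labelled Klotho were more spread, at -0.08, -0.41 and -0.46. Against control without regard to number, all vector libraries lay lower for Hif1a, Arnt, Egln1 and Egln3 and higher for Hif3a and Egln2, where 19.1% of all genes lay lower and 22.4% higher. All libraries labelled Klotho lay lower for Egln1 and Egln3 and higher for Hif3a, where 8.83% lay lower and 11% higher. For Egln1, Egln3 and Hif3a the direction against the control of the same number was the same in 9 of 9 libraries. That follows from the lack of overlap with control and adds nothing to it.

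The other members were not called with or without the block in this comparison. Arnt had a log2 fold change of -0.25 ± 0.10 (limma adjusted p = 0.154), Egln2 0.26 ± 0.11 (0.172), Epas1 0.25 ± 0.23 (0.496) and Hif1an 0.14 ± 0.12 (0.466). Vhl (-0.06 ± 0.15) and Arnt2 (-0.01 ± 0.11) were closest to 0. With the GC content and length trend removed, Arnt stood at -0.14 and Egln2 at 0.06 over the 3 groups, and Egln2 at 0.01 in calcification medium alone. The macrophage marker Csf1r, the receptor of a macrophage growth factor, rose in the same comparison from 4.17 FPKM in control to 6.01, 7.57 and 6.08 FPKM in the calcification, vector and Klotho-labelled groups (log2 0.56, limma adjusted p = 0.038). The other 2 macrophage markers tested were not called: Cd68 stood at 0.58 ± 0.36 and Lyz2, the most abundant, at -0.08 ± 0.53, with 42.8 FPKM in control and 29.8, 41.3 and 35.3 FPKM in the same 3 groups. Adgre1 and Ptprc averaged under 1 FPKM. Summed over 5 macrophage markers, the level ranged from 24.7 to 102 FPKM in control and from 26.4 to 80.4 FPKM in the other groups. Of 6 smooth muscle and 4 tested adventitial fibroblast markers, none was called in this comparison without the block. With it 2 of the 6 and 2 of the 4 fell, where 6.58% of all genes did. Fold changes without the block were negative for 5 of the 6 and all 4. The part of these cell types in the members' differences was not tested.

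**Figure D2:**
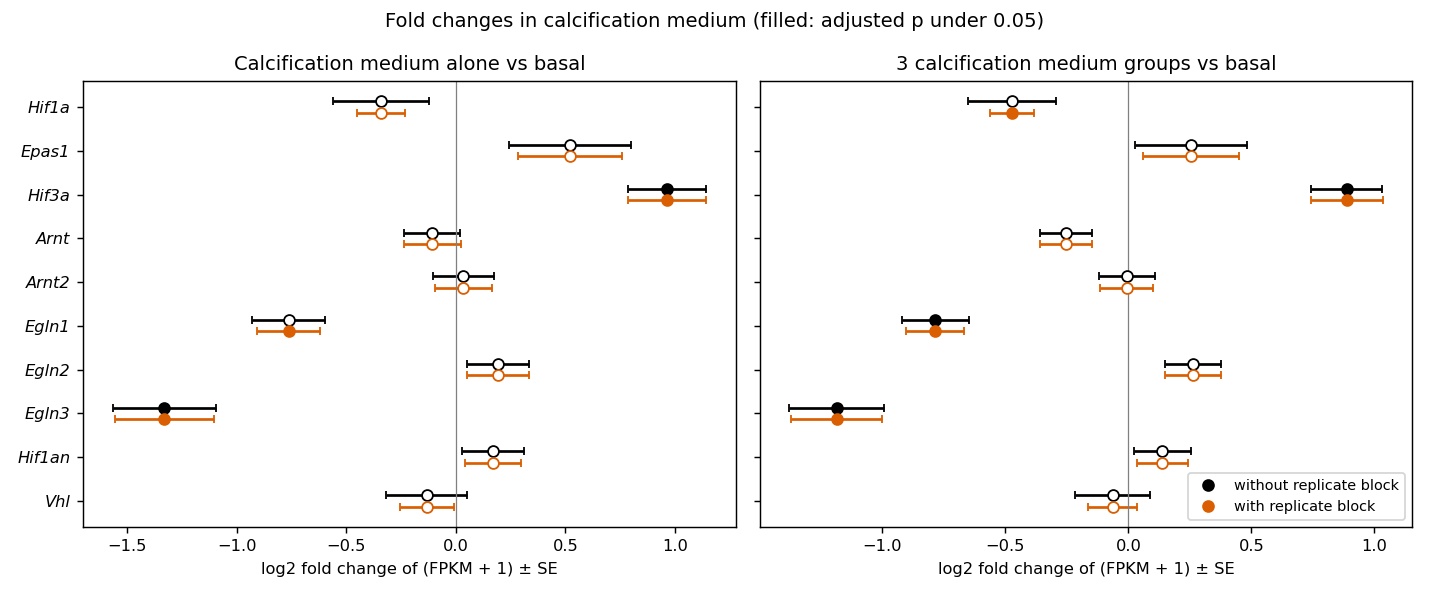
Log2 fold change of (FPKM + 1) ± SE of each gene, for calcification medium against control (left) and the 3 calcification medium groups against control (right), fitted without (black) and with (orange) the replicate number as a block; filled points have an adjusted p under 0.05. Egln3 and Hif3a are filled in both panels, at -1.33 and 0.96 on the left and -1.19 and 0.89 on the right, while Egln1 on the left and Hif1a on the right are filled only with the block.

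Levels of the 3 genes were then compared across libraries. Across the 12 libraries the Pearson correlation of log2(FPKM + 1) was 0.84 between Egln1 and Egln3 and -0.91 between Hif3a and Egln3, and these values are descriptions that include the difference between the media. The 3 genes were called on that difference, so these correlations add nothing to the calls. Within the vector group Egln3 was at 2.29, 1.92 and 2.13 FPKM and Egln1 at 20.2, 26.7 and 29.0 FPKM. There replicate 1 was the highest for Egln3 and the lowest for Egln1. In the libraries labelled Klotho Egln3 was at 0.405, 1.72 and 1.35 FPKM and Egln1 at 19.9, 26.4 and 19.6 FPKM. The lowest library for Egln3, Klotho replicate 1, was the highest for Hif3a at 4.09 FPKM. Arnt and Egln2 were correlated at -0.94 and Hif1a and Arnt at 0.71. Transcripts of Egln2 had the highest GC content of the 10, at 62.2%, and those of Hif1a the lowest, at 41.3%.

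**Figure D3:**
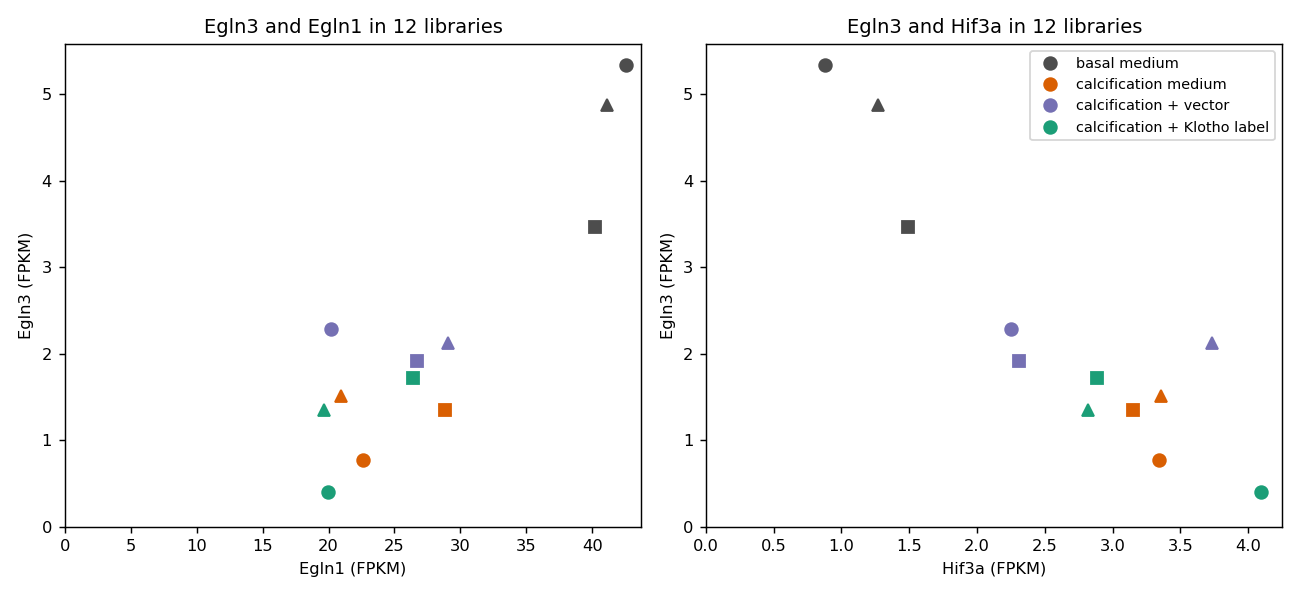
Egln3 level against Egln1 (left) and against Hif3a (right), in FPKM on linear axes from 0, for the 12 libraries coloured by group, with circles, squares and triangles for replicates 1, 2 and 3. The 3 basal medium libraries stand at 3.47 to 5.34 FPKM of Egln3, apart from the other 9 at 0.405 to 2.29 FPKM.

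Ratios between members were compared within libraries, which removes what scales all genes of a library alike. Epas1 was 0.734, 1.72 and 1.07 times the Hif1a level in control and 1.87, 2.88 and 1.65 times in calcification medium. The 2 groups overlapped, and the mean log2 ratio was 0.90 higher in calcification medium (exact permutation test, two-sided, p = 0.2, where 3 against 3 libraries allow no p below 0.1). Over the 9 calcification medium libraries it was 0.77 higher (exact p = 0.0545, adjusted p = 0.25 over 10 ratio tests). Egln3 was 12.5%, 8.63% and 11.9% of Egln1 in control and 3.40%, 4.70% and 7.24% in calcification medium, so that Egln3 lay lower relative to Egln1 in all 3 libraries. The log2 ratio was lower by 1.16 on average (exact p = 0.1, the smallest possible), and over the 9 libraries the difference was -0.93 (exact p = 0.0636, adjusted p = 0.25).

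The third comparison, the libraries labelled Klotho against those with the empty vector, asked about αKlotho within calcification medium. None of the 10 members was called, nor was any of the 10758 genes (0%) by limma, although 1514 genes had an unadjusted p under 0.05; limma-voom also called 0. Hif1a was at 12.4, 8.63 and 12.9 FPKM with vector and at 20.1, 11.5 and 16.2 FPKM under the Klotho label. Those groups overlapped, and the log2 fold change was 0.45 ± 0.22 (limma adjusted p = 0.383). Egln3 had the largest fold change of the members, -0.58 ± 0.24 (adjusted p = 0.309), and its libraries under the Klotho label all lay below those with vector, as did 10.4% of all genes. It was -0.26 in replicates 2 and 3 alone. Klotho replicate 1 held 19 fragments of Egln3 and the other libraries of these groups 72 to 106.

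Among the remaining members Egln2, a prolyl hydroxylase that low oxygen does not induce, stood at 43.9, 37.5 and 32.7 FPKM with vector and 26.7, 28.2 and 33.3 FPKM under the Klotho label (log2 -0.36 ± 0.14, limma adjusted p = 0.305). Arnt stood at 5.43, 6.04 and 6.87 FPKM with vector and 8.97, 7.54 and 6.61 FPKM under the label (0.29 ± 0.13, adjusted p = 0.340). Both genes overlapped between the groups. Fold changes in this comparison followed transcript composition: over 10733 genes they correlated at -0.52 with the GC share and at 0.42 with log2 length. After that trend was removed the log2 fold changes were 0.20 for Hif1a, -0.10 for Egln2, 0.15 for Arnt and -0.47 for Egln3, with adjusted p values from 0.665 to 0.874. Epas1 had 14.2, 22.7 and 36.0 FPKM with vector, the widest group of any member, and 26.3, 23.8 and 24.0 FPKM under the label (0.12 ± 0.28). It was -0.25 in replicates 2 and 3 alone, the opposite sign. Egln1 (-0.19), Hif3a (0.19), Arnt2 (0.06), Vhl (-0.04) and Hif1an (-0.00) had SEs of 0.14 to 0.19. Of these, Hif3a (-0.04), Arnt2 (-0.02) and Hif1an (0.13) took the opposite sign in replicates 2 and 3 alone.

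Vector against calcification medium alone, which differ by the empty virus as labelled, gave no called member and 0 called genes (0%) by limma or by limma-voom, while 1520 genes had an unadjusted p under 0.05. Arnt was lower with vector in all libraries (log2 -0.36 ± 0.13, limma adjusted p = 0.308), as were 11.3% of all genes, and Egln3 higher in all (0.51 ± 0.24, adjusted p = 0.355), as were 6.11%. Hif1a (-0.42 ± 0.22), Epas1 (-0.46 ± 0.28) and Egln2 (0.29 ± 0.14) overlapped between the groups and were not called either. Over all genes these fold changes correlated at 0.40 with the GC share and at -0.54 with log2 length. With the trend removed Hif1a stood at -0.20, Arnt at -0.16 and Egln2 at 0.12, while Epas1 stood at -0.42 and Egln3 at 0.40.

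The libraries labelled Klotho and those in calcification medium alone were closest. No gene of 10758 was called (0%) by limma, 337 had an unadjusted p under 0.05 and 308 did in limma-voom, which also called 0. Fold changes of the 10 members lay between -0.34 ± 0.28 for Epas1 and 0.08 ± 0.19 for Vhl. Hif1a stood at 0.02 ± 0.22, Egln3 at -0.07 ± 0.24 and Hif3a at -0.02 ± 0.18. The Epas1 libraries under the Klotho label all lay below those in calcification medium, as did 4.26% of all genes, while 3.2% lay above without overlap and no member did. The 3 comparisons among the calcification medium groups share libraries with each other.

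**Figure D4:**
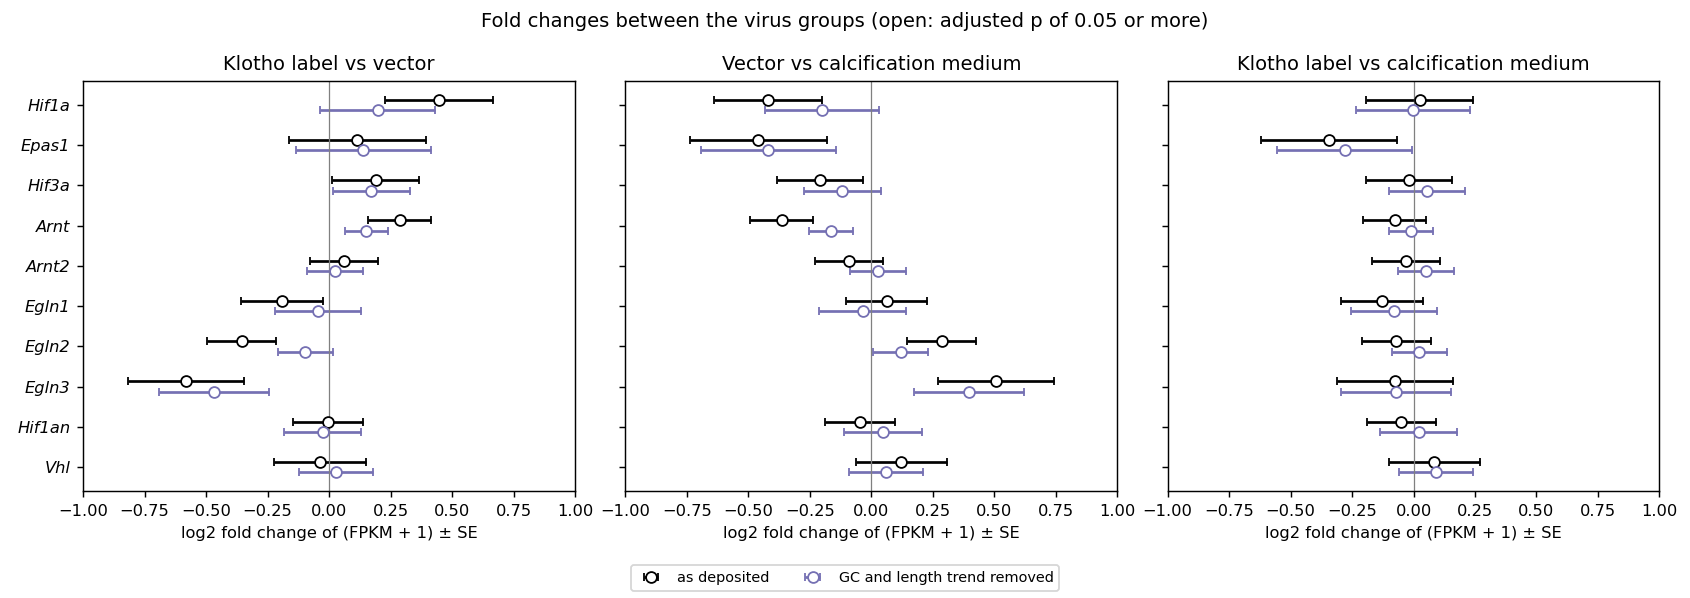
Log2 fold change of (FPKM + 1) ± SE of each gene between the 3 groups in calcification medium, as deposited (black) and after the trend with GC content and length was removed (purple). All points are open, none having an adjusted p under 0.05, and Hif1a, Arnt and Egln2 move toward 0 in the left panel, to 0.20, 0.15 and -0.10.

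Partners of the pathway outside the 10 genes were read from lists by role. Of 13 genes of the Vhl ligase and of HIF protein turnover, none was called in either comparison with control without the block. Calls with the block in these lists are for the 3 calcification medium groups against control, where the block fit called 16% of all genes, 9.45% higher and 6.58% lower. The most abundant were the chaperone Hsp90ab1 (log2 0.09 over the 3 calcification medium groups), Rack1, a scaffold that binds Hif1a protein (0.45, limma adjusted p = 0.129), and Elob, a subunit of the Vhl ligase (0.18). Stub1, a ubiquitin ligase, was the 1 of 13 that rose with the block alone (0.54, adjusted p = 0.0904 without it and 0.0256 with it). Of 6 tested coactivators and repressors none was called without the block, and with it Ep300 (-0.56, adjusted p = 0.0388) and Crebbp (-0.56, adjusted p = 0.0452), both histone acetyltransferases, fell. The most abundant of that list, Cited2, a competitor for their binding, stood at 57.1 ± 6.73 FPKM in control (-0.11). Among 3 tested relatives of the bHLH-PAS family, Ahr, the dioxin receptor, fell with the block alone (-0.60, adjusted p = 0.195 without it and 0.0337 with it).

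Other oxygen-dependent dioxygenases were read beside the Egln genes. In limma P4ha1, a subunit of collagen prolyl 4-hydroxylase, fell from 87.0 ± 6.42 FPKM in control to 43.5 ± 2.37 FPKM in calcification medium (log2 -0.98 ± 0.13, adjusted p = 0.008) and was the only 1 of 10 tested to be called there, where 0.279% of all genes fell. Over the 3 calcification medium groups P4ha1 (-1.02 ± 0.11, adjusted p = 0.000905) and the histone demethylase Kdm3a (-0.50 ± 0.12, adjusted p = 0.0405) fell, 2 of 10 against 1.78% of all genes. Kdm3a went from 4.29 FPKM in control to 2.83, 2.41 and 2.99 FPKM in the calcification, vector and Klotho-labelled groups. The median of the 10 was -0.11, beside 0.03 for all genes tested. P4ha1 was also among the 3 genes whose levels followed Egln1 most closely across the 12 libraries, with a Pearson correlation of 0.94, after Clstn1 (0.96) and with Lhfp (0.94). For Egln3 those genes were Fam162a (0.94), Aldoa (0.92) and Pfkl (0.92), for Hif1a Cand1 (0.91), Sec24c (0.89) and Trappc11 (0.89), and for Epas1 Mdm2 (0.92), Otud1 (0.89) and Abhd2 (0.87). These correlations describe 12 libraries that share the media groups and replicate numbers.

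Known targets of the hypoxia-inducible factors were read from the longest list. It was chosen with earlier results of these data known, so its counts beside all genes are descriptions and not an independent test. Of 24 tested genes on the list, which holds none of the 10 members, 11 fell and 0 rose over the 3 calcification medium groups in limma, against 1.78% of all genes that fell. In all 23 were negative, and the median log2 fold change was -0.64 beside 0.03 for all genes. In calcification medium alone 7 fell, against 0.279% of all genes, 0 rose and 22 were negative, with a median of -0.65 beside 0.04. With the replicate block 19 fell over the 3 groups, against 6.58% of all genes, and 13 in calcification medium alone, against 1.17%. The smallest adjusted p values over the 3 groups were those of Ndufa4l2, a mitochondrial protein gene (log2 -3.06 ± 0.35, adjusted p = 0.00127), the lactate exporter Slc16a3 (-2.39 ± 0.31, 0.00247), the kinase Pdk1, which restrains entry of pyruvate into mitochondria (-1.38 ± 0.19, 0.00331), and the phosphofructokinase Pfkl (-1.41 ± 0.21, 0.00514). The other 7 are named after their values were seen: Vegfa (-0.97), Pgk1 (-1.42), Ak4 (-1.56), Fam162a (-1.06), Bnip3 (-1.07), Ldha (-0.87) and Slc2a1 (-0.62, adjusted p = 0.0496). Vegfa, the vascular growth factor, was at 11.7 ± 2.30 FPKM in control and at 6.60 ± 0.616, 6.02 ± 1.5 and 4.11 ± 0.685 FPKM in the calcification, vector and Klotho-labelled groups. Stc2 (0.02 ± 0.44) had the single positive fold change.

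**Figure D5:**
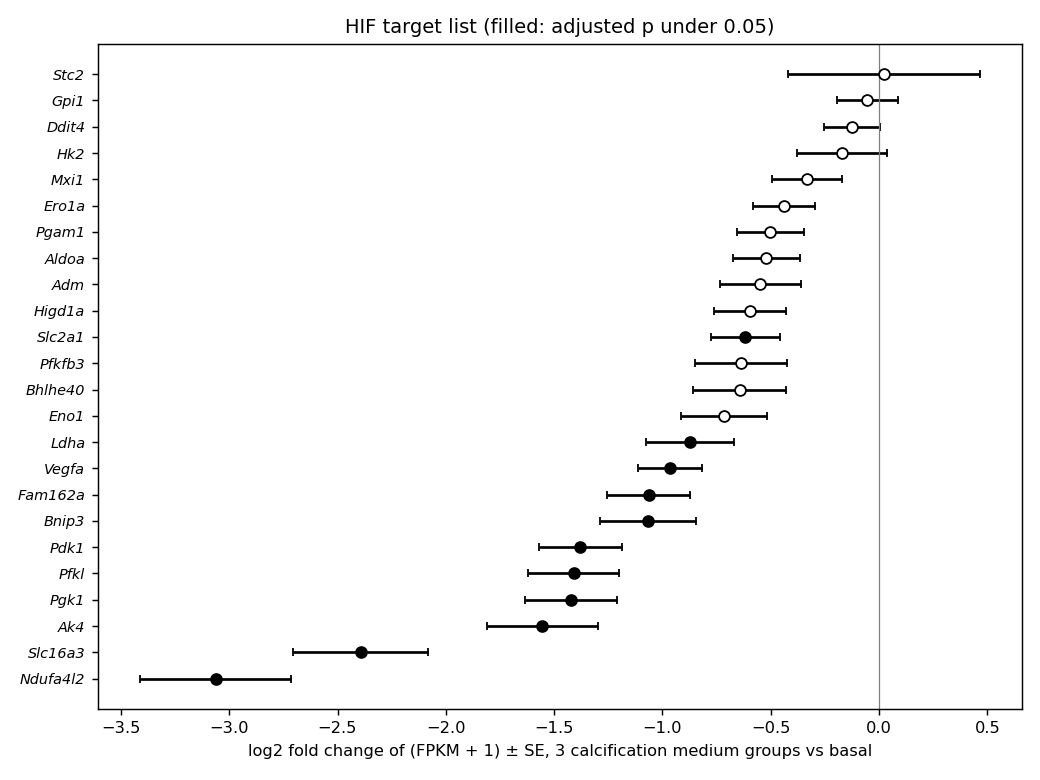
Log2 fold change of (FPKM + 1) ± SE of the 24 tested target genes, for the 3 calcification medium groups against control; filled points have an adjusted p under 0.05 in limma. The 11 filled genes run from -0.62 for Slc2a1 to -3.06 for Ndufa4l2, and all but Stc2 lie below 0.

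In the comparisons among calcification medium groups no target was called. Under the Klotho label 20 of 24 were negative against vector, the median being -0.26 beside -0.01 for all genes. With vector 16 of 24 were positive against calcification medium alone, with a median of 0.18 beside -0.00. The median of the Klotho label against calcification medium alone was -0.10, beside -0.03 for all genes.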

How the data were processed

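Primary mouse aortic smooth muscle cells were measured by RNA sequencing in 12 libraries, 3 per group. A single expression table was deposited by the authors, and its deposited values behave as FPKM: multiplied by the exon length in GENCODE M21, found for 99.2% of genes, 98.07% to 98.32% of values below 100 fragments came out whole within 0.05 of a fragment. Depth was recovered in this way, and counting error alone limits low genes. The submitters' processing notes list STAR 2.4, DESeq2 3.12 and CASAVA 1.8.2 and the builds GRCm38 and GRCm39. How fragments were counted, with which annotation and whether by strand was not given in the sources used here. Without strand, reads of an antisense gene cannot be told apart from those of the gene. In GENCODE M21 genes on the opposite strand share 5.6% of the exon bases of Hif1a, 2.78% of Arnt2 and 0.393% of Egln2. A gene on the same strand shares 2.51% of those of Hif1a, which knowing the strand would not separate.

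From there log2(FPKM + 1) was fitted with limma 3.58.1 (R 4.3.3, mean-variance trend) over all 12 libraries with 1 coefficient per group, for genes averaging 1 FPKM or more, with Benjamini-Hochberg adjustment over all of them and a call at an adjusted p under 0.05. Ratios were tested by exact permutation. The fit was tested on simulated data. Members and gene lists were chosen with earlier results of these data known. The members are given throughout; from each list up to 4 called genes with the smallest adjusted p in a comparison were named, or else up to 3 with the highest level, and the 3 genes most correlated with each of 4 members. Further called genes were named after their values were seen. No replicates agreed within sampling noise, and none were merged.

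The labels number the replicates 1 to 3 without saying what a number marks. Deviations of same-numbered libraries from their group means correlated across genes at 0.199 to 0.509 for control and calcification medium, 0.403 to 0.537 for control and vector, 0.242 to 0.571 for control and the Klotho label, and 0.573 to 0.731 for calcification medium and the Klotho label. In those comparisons the numbers were taken to pair the libraries, and block values or counts are printed where calls of members or listed genes change. Between vector and the other 2 calcification medium groups they were not. The block fit nevertheless gave each number an effect shared by all groups, vector included. Alternatives were another pseudocount, other filters, median-of-ratios scaling, limma-voom run on the recovered fragments, the replicate block, the 2 groups fitted alone, removal of a GC content and length trend, replicates 2 and 3 alone, and leaving out each library.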

Additional observations from a re-analysis of the deposited data

How the results depend on the processing

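Member calls against control in calcification medium alone were the least stable. Of 10 members 2 were called with all libraries, 1 with a pseudocount of 0.1 or by limma-voom, 0 with no filter, with the 2 groups fitted alone or with replicates 2 and 3 alone, and 0 to 2 when a library was left out. Over 22 alternatives the adjusted p ran from 0.0076 to 0.133 for Hif3a, from 0.0044 to 0.108 for Egln3 and from 0.0055 to 0.234 for Egln1. Of these 22, Hif3a was called in 11, Egln3 in 11 and Egln1 in 3. Egln3 had log2 -1.85 (adjusted p = 0.0900) with the pseudocount of 0.1 and -1.95 (0.0537) by limma-voom. With all 3 calcification medium groups 1 to 3 members were called when a library was left out. Of 1090 refitted member fold changes 66 changed sign, 0 of them for a gene called in the comparison concerned. The counts of called genes moved more: for calcification medium against control 76 became 37 with no filter, 3 with the 2 groups alone and 15 to 61 with a library left out, and for the 3 groups against control 471 became 210 with no filter, 963 with replicates 2 and 3 alone and 104 to 726 with a library left out. Klotho against vector gave 2 genes with no filter, vector against calcification 1 with no filter, and Klotho against calcification 4 with replicates 2 and 3 alone; each stayed at 0 with any library left out. No fit of 2 groups alone applies to the 3 groups together, and no member missed the filter, so the test planned for such members was empty. The cause of these shifts was not tested.

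With the replicate block, calls rose to 421 (563 with the GC and length trend also removed) for calcification medium against control, to 1725 (1766) for the 3 groups. For Klotho against vector 11 genes were called with the block, and 0 with the trend also removed, where the correlations of same-numbered libraries were 0.01 to 0.52; for vector against calcification (-0.06 to 0.50) it called 0. In each of these pairs of groups 4 of 6 libraries correlated best with their own number. The same count was not made for the other pairs of groups. In the block fit Egln1 in calcification medium alone and Hif1a over the 3 groups gained a call, the latter also with the trend removed (log2 -0.38, adjusted p = 0.00705), and no other member call changed, in any of the 5 comparisons.

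Signs that turned belonged to member fold changes of at most 0.19 in size. The largest was that of Hif3a in Klotho against vector, 0.19 with all libraries and -0.039 with replicates 2 and 3 alone. Arnt2 was -0.00479 under median-of-ratios scaling and -0.033 with replicates 2 and 3 alone in calcification medium against control, and 0.041 over the 3 groups with the trend removed, with or without the block. Vhl was 0.026 and 0.061 with replicates 2 and 3 alone in these comparisons, and Epas1 -0.25 in Klotho against vector. In the same libraries the log2 Epas1 to Hif1a ratio was 0.31 for vector against calcification, and the Egln3 to Egln1 ratio 0.20 for Klotho against calcification. Over the 3 groups the Egln3 to Egln1 ratio kept its sign there, at -0.62 (exact permutation p = 0.0357). That p is not adjusted and is the smallest that so few libraries allow. With a library left out, Arnt2 ranged from -0.036 to 0.077 and from -0.045 to 0.031, Vhl from -0.33 to 0.069 and from -0.26 to 0.14, Hif1an over the 3 groups from -0.0037 to 0.26, Epas1 in Klotho against vector from -0.21 to 0.44, and Vhl in Klotho against calcification from -0.029 to 0.16. The log2 ratio of Epas1 to Hif1a then ran from 0.61 to 1.22 (calcification against control), -0.77 to -0.13 (Klotho against vector), -0.25 to 0.39 (vector against calcification), -0.57 to -0.14 (Klotho against calcification) and 0.47 to 1.09 (3 groups). That of Egln3 to Egln1 ran from -1.44 to -0.90, -1.21 to -0.33, 0.53 to 1.08, -0.42 to 0.46 and -1.10 to -0.75 in the same order. Depth limits Egln3 most, with 19 to 243 fragments per library, and leaves Egln1 at 1262 to 2617.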
